A study of Mus musculus with 2 samples.

Results

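The replication histone genes were the 67 genes whose symbol begins with Hist1h, Hist2h, Hist3h or Hist4h, out of 31053 genes in both count matrices. They comprise 6 H1 linker histone genes, 18 H2A genes, 18 H2B genes, 12 H3 genes and 13 H4 genes, of which 54 carry a Hist1h, 10 a Hist2h, 2 a Hist3h and 1 a Hist4h symbol. A unique molecular identifier (UMI, a tag that marks 1 captured RNA molecule) was counted for 62 of them in the kept cells of the cocktail library and for 62 in those of the vehicle library. Hist1h2bq, Hist1h4f, Hist1h2ba and Hist1h2aa had none in either library.

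The data are droplet single-cell RNA-seq of the cultured mouse cochlea, in which the question was how a mixture of drugs and siRNAs acts on inner ear cells before Atoh1, a transcription factor that drives hair cell formation, is supplied. Explanted whole cochleae came from C57BL/6J mice, 4 to 6 weeks of age, and were given the cocktail for 4 days, namely VPA at 1.5 mM, LiCl at 8 mM, FSK at 20 µM, siFIR at 0.02 µM and siMxi1 at 0.02 µM. The vehicle cultures received sterile water with 0.1% DMSO for 4 days. All cultures, vehicle included, then had ad.Atoh1 for 2 weeks, so no library shows the cochlea without the virus. The sensory epithelium was dissected and dissociated, and 5 cultures were pooled into each library. Cells were not assigned to cultures, so each condition is 1 library and no difference below has a replicate check or a p-value.

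After removal of barcodes with under 500 UMIs, under 300 genes or over 20% mitochondrial UMIs, 1329 cells of 1403 barcodes were kept in the cocktail library and 1584 of 1688 in the vehicle library. They held 19531019 and 23017362 UMIs, of which 12680 and 15572 came from replication histone genes. The libraries shared 0 barcodes. By marker genes, 688 cocktail cells and 758 vehicle cells were epithelial and 273 and 342 were mesenchymal, so the dissected epithelium came with connective tissue cells. Levels are given as CPM, the UMIs of a gene summed over a group of cells per 1000000 UMIs of that group. UMIs mark 3′ ends and are not divided by gene length, and how completely each gene is captured is unknown, so levels are compared between groups of cells rather than between genes. All intervals are 95% intervals for counting error only, exact Poisson for a level, exact conditional for a ratio and Clopper-Pearson for a share.

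Replication histones package newly made DNA. H2A, H2B, H3 and H4 form the nucleosome core and H1 binds the linker DNA between nucleosomes. Their genes are transcribed in S phase, and their mRNAs usually end in a short stem-loop bound by the protein SLBP in place of a poly(A) tail. A method that primes on poly(A), as the one used here, captures such mRNAs poorly, while some of these genes also make polyadenylated transcripts, in particular in cells that have left the cell cycle. The adult mouse cochlear epithelium is known as a tissue with almost no cell division.

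The stem-loop is shown for the members whose levels carry the results, because it is the 3′ end feature that sets replication histone mRNAs apart. Its presence in an annotated transcript does not show which form was captured here. In GENCODE M21 transcripts (GRCm38) 46 of the 67 members held a sequence of a stem, a loop and the matching stem somewhere in a transcript. Some of the others have short annotated transcripts, such as Hist1h2bn at 381 bases, Hist1h2an at 393 and Hist1h4k at 312. A 3′ end beyond the annotated one was not searched, so a missing stem-loop can be a gap in the annotation. Within the last 100 bases of a protein-coding transcript it was found for 23 of the 67 members, beside 0.043% of 58797 protein-coding transcripts. Stem bases are in capitals, and the genes lie at chr13:21833026-21833507 (minus strand, Hist1h2ap), chr13:23570517-23571220 (minus, Hist1h2ae), chr13:23744973-23745602 (minus, Hist1h3c), chr13:23581598-23582735 (plus, Hist1h4d), chr11:58954685-58956830 (plus, Hist3h2a) and chr11:58948920-58949533 (plus, Hist3h2ba).
Hist1h2ap: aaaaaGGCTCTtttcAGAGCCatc
Hist1h2ae: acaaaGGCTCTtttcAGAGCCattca
Hist1h3c: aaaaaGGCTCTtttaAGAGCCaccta
Hist1h4d: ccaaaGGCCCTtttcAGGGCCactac
Hist3h2a: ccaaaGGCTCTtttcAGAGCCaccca
Hist3h2ba: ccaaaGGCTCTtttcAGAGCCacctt
The first stem read GGCTCT in 4 H1, 11 H2A, 10 H2B and 9 H3 genes. The H4 genes had GGCCCT in 10 cases, with GGTCCT found in 2. Hist3h2a and Hist3h2ba carried the same stem and loop letters as Hist1h2ap and Hist1h2ae, although their levels went the other way in dividing cells, as described below. In the annotation 1643 bases follow the loop in Hist3h2a and 169 bases in Hist3h2ba, and both end with the poly(A) signal AATAAA within the last 50 bases. For Hist1h2bc the annotation holds 1 spliced transcript of 1156 bases at chr13:23684199-23692908 (plus strand), in which no stem-loop was found.

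Promoters of 1 member high in dividing cells and of the 2 Hist3h members low there are shown from RefSeq (GRCm38.p6), from 250 bases before the start to 50 after it, with the matches of the motifs searched in capitals. The motifs searched on both strands were CCAAT, the CCAAT box, with TATAAA, the TATA box. ATTTGCA, the core of the octamer motif known from H2B promoters, was searched too, as was the motif AAACACA, known from H1 promoters. In the promoters printed no match overlaps another. The windows are chr13:21780576-21780875 (minus strand, Hist1h1b), chr11:58954435-58954734 (plus, Hist3h2a) and chr11:58948661-58948960 (plus, Hist3h2ba).
Hist1h1b: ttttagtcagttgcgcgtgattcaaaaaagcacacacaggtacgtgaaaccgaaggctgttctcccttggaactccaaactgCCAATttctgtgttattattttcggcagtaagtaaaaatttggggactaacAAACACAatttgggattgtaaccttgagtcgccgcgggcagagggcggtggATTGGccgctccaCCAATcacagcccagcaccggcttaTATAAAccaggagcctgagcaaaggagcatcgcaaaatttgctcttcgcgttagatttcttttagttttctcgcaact
Hist3h2a: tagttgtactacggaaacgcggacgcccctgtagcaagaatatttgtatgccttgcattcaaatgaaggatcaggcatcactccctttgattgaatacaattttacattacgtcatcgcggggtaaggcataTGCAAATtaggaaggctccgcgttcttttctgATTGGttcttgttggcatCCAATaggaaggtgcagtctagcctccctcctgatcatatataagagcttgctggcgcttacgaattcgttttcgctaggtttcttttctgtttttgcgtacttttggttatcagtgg
Hist3h2ba: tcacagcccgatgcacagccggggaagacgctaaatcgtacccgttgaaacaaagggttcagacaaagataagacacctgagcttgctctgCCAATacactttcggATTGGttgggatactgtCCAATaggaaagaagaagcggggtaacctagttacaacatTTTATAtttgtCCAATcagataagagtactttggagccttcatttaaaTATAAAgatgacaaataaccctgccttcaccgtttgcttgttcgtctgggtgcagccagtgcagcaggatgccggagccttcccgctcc
CCAAT was present in 53 of the 62 members with a promoter entry and in 37.4% of 32851 promoters of the same length. TATAAA was found in 35 members and 13.6% of all promoters, ATTTGCA in 14 and 4.0%, and AAACACA in 9 and 7.2%. The 3 promoters printed all hold CCAAT, with 3 matches in Hist1h1b, 2 in Hist3h2a and 4 in Hist3h2ba, so these letters alone did not separate the 2 kinds of member.

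Dividing cells were taken as those with at least 5 UMIs of at least 3 genes and at least 500 CPM of a list of 25 G2/M genes or of a list of 18 S-phase genes, and non-dividing cells as those with at most 1 UMI of each list. Neither list holds a replication histone gene. This gave 74 dividing and 911 non-dividing cells in the cocktail library and 107 and 1073 in the vehicle library, and the 344 and 404 cells between these limits were left out. Of the dividing cells, 37 and 59 passed both lists (S and G2/M cells), 29 and 39 the G2/M list only, and 8 and 9 the S list only.

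Captured replication histone RNA was most abundant in cells that passed both lists. The summed level was 2303 CPM (2223 to 2384) in cocktail S and G2/M cells and 2292 CPM (2220 to 2364) in vehicle S and G2/M cells. In G2/M only cells it was 618 CPM (555 to 686.5) under cocktail and 457.5 CPM (409 to 510.0) under vehicle, against 474 CPM (460 to 488.5) and 546.5 CPM (533 to 560.4) in non-dividing cells. G2/M only cells thus stood near the non-dividing level, above it in the cocktail library by 0.38 on the log2 scale (0.22 to 0.54) and below it in the vehicle library by −0.26 (−0.42 to −0.10). The few S only cells were lower still, at 381 CPM (310 to 464) and 188 CPM (134.1 to 256).

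The log2 ratio of the summed level of S and G2/M over G2/M only cells was 1.90 (1.74 to 2.06) in the cocktail library and 2.32 (2.16 to 2.49) in the vehicle library. With each cell weighted equally (CPM averaged over the cells) the ratio was 1.16 and 1.22. A looser gate for dividing cells gave 0.71 and 1.53. Single cells spread widely within the S and G2/M cells, with quartiles of 292, 1252 and 4387 CPM in the cocktail library and 360, 1678 and 3743 CPM in the vehicle library. Some cells that passed both lists therefore gave few or no replication histone UMIs, and the lowest had 0 CPM in both libraries. How much of this RNA such cells held was not measured, since capture depends on a poly(A) tract. Dividing cells were also sequenced more deeply, with median UMIs of 30248 and 24205, against 5104 and 7963 in non-dividing cells. Among cells with at least 5000 UMIs the log2 ratio of dividing over non-dividing cells was 1.82 (1.76 to 1.89) in the cocktail library and 1.61 (1.55 to 1.67) in the vehicle library, close to the values over all kept cells of 1.80 (1.73 to 1.86) and 1.57 (1.52 to 1.63). A looser gate for dividing cells gave 1.02 in the cocktail library and 0.71 in the vehicle library for that ratio.

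**Figure D1:**
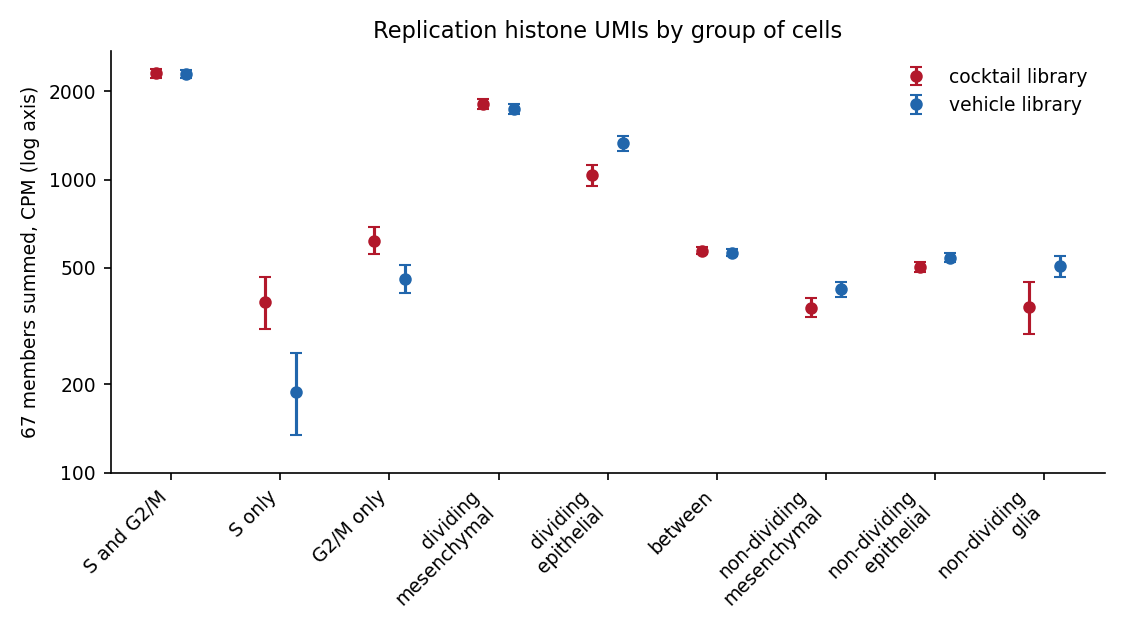
Summed level of the 67 replication histone genes (CPM, log axis) in groups of cells, cocktail left of vehicle, with 95% exact Poisson intervals. S and G2/M cells stand at 2303 and 2292 CPM, above G2/M only cells at 618 and 457.5 CPM and non-dividing epithelial cells at 504 and 541 CPM.

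Member by member, 29 of the 38 genes with at least 20 UMIs were at least 2-fold higher in dividing than in non-dividing cells of the cocktail library, where 11.0% of all genes tested were. In the vehicle library 30 of 42 were, against 9.17% of all genes. A further 3 members were at least 2-fold lower in the cocktail library, where 20.2% of all genes were, and 4 in the vehicle library, where 16.1% were. The median log2 ratio of the members tested was 3.18 and 2.94, beside −0.14 and −0.13 for all genes tested. The other 29 members in the cocktail library and 25 in the vehicle library had under 20 UMIs in these cells and were not tested. With a minimum of 50 UMIs 14 and 18 members were at least 2-fold higher, and with no minimum 47 and 47.

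Taking both libraries, 28 members were higher in dividing cells in each, namely 4 H1, 8 H2A, 7 H2B, 7 H3 and 2 H4 genes. Lower in each were 3 members, Hist1h2bc, Hist3h2ba and Hist3h2a. Within 2-fold in each were 5, Hist1h4a, Hist1h4h, Hist1h4i, Hist2h2aa1 and Hist4h4, while Hist1h1c and Hist2h2be differed between the libraries. The remaining 29 had under 20 UMIs in at least 1 library. CCAAT was present in 26 of the 26 promoters at hand for the 28 higher members and in 2 of 2 for the lower ones. AATAAA within the last 50 bases was annotated for 2 of the 28 higher members, for 2 of the 3 lower ones and for 15 of all 67 members, beside 40.5% of 58797 protein-coding transcripts. These counts depend on where each annotated transcript ends, and a signal beyond that end would be missed.

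**Figure D2:**
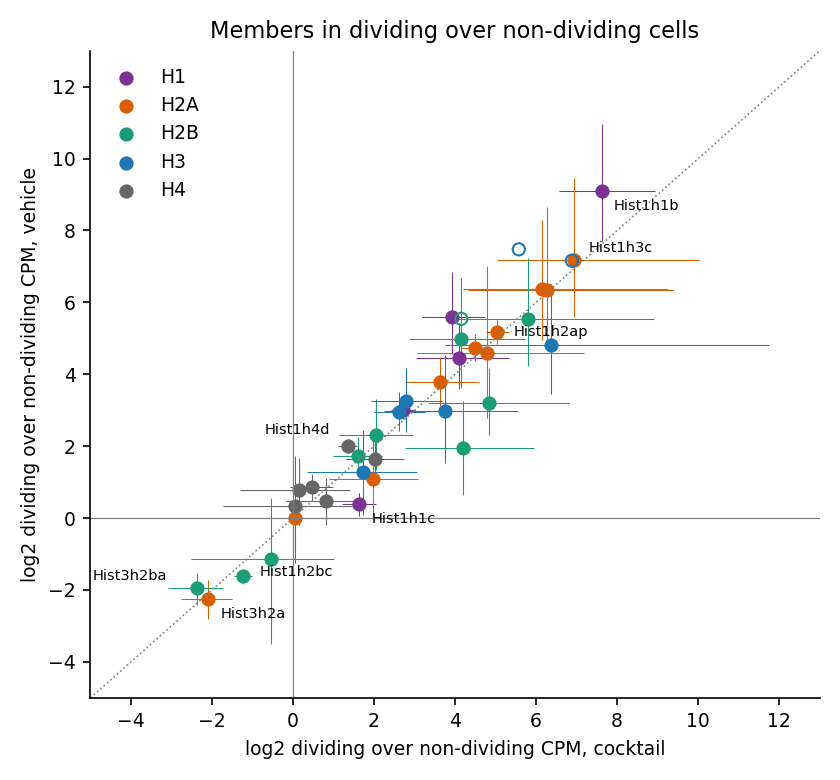
log2 ratio of the level in dividing over non-dividing cells in the cocktail library (horizontal axis) and in the vehicle library (vertical axis) for 38 members tested in both, coloured by histone type, with 95% exact intervals; open circles are lower bounds where a library had no UMI in non-dividing cells, and the dotted line marks equal ratios. Most points lie in the upper right part along that line, and Hist1h2bc, Hist3h2ba and Hist3h2a lie in the lower left.

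Among the H1 linker histones, Hist1h1b separated the groups most. It was at 157 CPM in cocktail dividing cells and 194 CPM in vehicle dividing cells, against 0.80 CPM (7 UMIs) and 0.358 CPM (4 UMIs) in non-dividing cells. The log2 ratio was 7.61 (6.56 to 8.94) in the cocktail library and 9.08 (7.72 to 10.97) in the vehicle library. Nearly all of its captured RNA lay in S and G2/M cells, at 240 and 293 CPM, against 10.6 and 9.85 CPM in G2/M only cells. None of its sequence was shared with another gene over 50 bases (0.0%), so its counts are free of reads from near-identical copies by this measure.

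Hist1h1a was at 33.0 and 34.5 CPM in dividing cells, against 2.17 and 0.716 CPM in non-dividing cells (log2 ratio 3.93 and 5.59). Hist1h1d, another linker histone, was at 17.6 and 25.4 CPM in dividing cells, against 1.03 and 1.16 CPM in non-dividing cells (4.10 and 4.45). Hist1h1e was at 114.5 and 152 CPM in dividing cells, against 17.6 and 18.8 CPM in non-dividing cells, with log2 ratios of 2.70 (2.41 to 3.00) and 3.01 (2.77 to 3.26). It overlaps Hist1h2be on the same strand in the annotation, so reads of these 2 genes could be confused.

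Hist1h1c behaved differently from the other H1 genes. It was at 39.4 and 41.7 CPM in dividing cells of the cocktail and the vehicle library, against 12.8 and 32.0 CPM in non-dividing cells, with log2 ratios of 1.62 (1.20 to 2.04) and 0.38 (0.06 to 0.69). Its order between S and G2/M and G2/M only cells also turned round, at 33.2 and 60.2 CPM in the cocktail library and 53.1 and 25.3 CPM in the vehicle library. Hist1h1c is known as an H1 gene that differentiated cells can keep expressing. As a type, H1 was at 361 and 448 CPM in dividing cells, against 34.4 and 53.2 CPM in non-dividing cells (log2 ratio 3.39 and 3.07).

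H2A genes held the most UMIs of S and G2/M cells, and 2 of them, Hist1h2ap and Hist1h2ae, led in both libraries. Hist1h2ap was at 433 CPM in cocktail dividing cells and 265 CPM in vehicle dividing cells, against 13.1 and 7.34 CPM in non-dividing cells. Its log2 ratio was 5.04 (4.76 to 5.34) in the cocktail library and 5.18 (4.84 to 5.52) in the vehicle library. Of its sequence 93.1% recurs in other genes over 50 bases, so the counts named Hist1h2ap stand for a set of near-identical H2A genes and depend on how the count software treated shared reads.

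Hist1h2ae was at 220.0 and 168 CPM in dividing cells, against 9.82 and 6.26 CPM in non-dividing cells (log2 ratio 4.49 and 4.75), with 43.2% of its sequence shared. Hist1h2an had 62 and 102 UMIs in dividing cells (28.1 and 38.7 CPM), against 2 and 3 UMIs in non-dividing cells (0.228 and 0.269 CPM), with log2 ratios of 6.94 (5.03 to 10.02) and 7.17 (5.58 to 9.47). Hist1h2ab was at 17.6 and 21.6 CPM in dividing cells, against 0.228 and 0.269 CPM in non-dividing cells (6.27 and 6.33). Both had at most 3 UMIs in the non-dividing cells of either library.

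Hist3h2a went the other way. It was at 10.4 CPM in cocktail dividing cells and 12.1 CPM in vehicle dividing cells, against 44.7 and 57.5 CPM in non-dividing cells, with log2 ratios of −2.10 (−2.78 to −1.49) and −2.25 (−2.81 to −1.73). Hist2h2aa1 was level between the groups, at 9.96 and 5.69 CPM in dividing cells, against 9.71 and 5.73 CPM in non-dividing cells, and 89.4% of its sequence is shared with other genes. Hist3h2a and Hist2h2aa1 overlap Trim17 and Gm20634, and reads of those genes could enter their counts. The H2A type as a whole was at 788 and 597.5 CPM in dividing cells, against 83.2 and 82.8 CPM in non-dividing cells (log2 ratio 3.25 and 2.85).

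H2B was the type that was lower in dividing cells when its genes were summed over all tissues, at 205.5 and 206 CPM, against 273 and 320.1 CPM in non-dividing cells (log2 ratio −0.41 and −0.63). Within epithelial cells its log2 ratio was −0.55 and −1.28. Within mesenchymal cells H2B was level, at 0.08 (−0.14 to 0.31) and −0.05 (−0.24 to 0.14). The sum was carried by Hist1h2bc, which alone held 34.8% of all replication histone UMIs in the cocktail library and 33.4% in the vehicle library. Hist1h2bc was at 89.6 CPM in cocktail dividing cells and 77.8 CPM in vehicle dividing cells, against 210 and 239 CPM in non-dividing cells. Its log2 ratio was −1.23 (−1.45 to −1.01) in the cocktail library and −1.62 (−1.83 to −1.41) in the vehicle library.

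Within the dividing cells Hist1h2bc was lower in S and G2/M than in G2/M only cells. It was at 18.1 and 51.4 CPM in S and G2/M cells, against 241 and 158 CPM in G2/M only cells, with log2 ratios of −3.74 (−4.42 to −3.12) and −1.62 (−2.04 to −1.20). Its share of the replication histone UMIs was 0.784% and 2.24% in S and G2/M cells, 39.0% and 34.5% in G2/M only cells, and 44.3% and 43.7% in non-dividing cells. With Hist1h2bc left out, the summed log2 ratio of dividing over non-dividing cells was 2.56 in the cocktail library and 2.33 in the vehicle library.

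Hist3h2ba, the neighbour of Hist3h2a on chromosome 11, was at 9.05 and 16.7 CPM in dividing cells, against 46.8 and 64.7 CPM in non-dividing cells, with log2 ratios of −2.37 (−3.10 to −1.73) and −1.96 (−2.43 to −1.52). Dividing cells were more often mesenchymal, in 39 of 74 and 60 of 107 cells, against 136 of 911 and 166 of 1073 non-dividing cells. Within mesenchymal cells, with 18 and 44 non-dividing UMIs, Hist3h2ba was not among the members called at least 2-fold lower in dividing cells. Within epithelial cells it was, in both libraries. The part of tissue in its pooled ratios was not tested. Most other H2B genes with enough UMIs resembled the H2A majority. Hist1h2bn had 28 and 55 UMIs in dividing cells, against 2 and 5 in non-dividing cells (log2 ratio 5.79 and 5.54). Hist1h2bm had 18 and 33 UMIs in dividing cells, against 4 and 0 in non-dividing cells, which is 17.8-fold in the cocktail library and at least 46.6-fold in the vehicle library, where a floor of 3 counts stood for 0.

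Hist1h2be was at 19.0 and 22.0 CPM in dividing cells, against 6.28 and 6.62 CPM in non-dividing cells (log2 ratio 1.60 and 1.73). Hist2h2be was within 2-fold in the cocktail library and lower in dividing cells of the vehicle library on 3 UMIs there, at 1.81 and 1.14 CPM in dividing cells, against 2.63 and 2.51 CPM in non-dividing cells.

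H3 genes had few UMIs outside dividing cells. Hist1h3c had 89 UMIs in cocktail dividing cells and 101 in vehicle dividing cells (40.3 and 38.3 CPM), against 0 UMIs in the non-dividing cells of both libraries, a difference of at least 118-fold and at least 143-fold with the floor of 3 counts. Hist1h3b had 36 and 42 UMIs in dividing cells, against 0 and 1 in non-dividing cells, which is at least 47.6-fold in the cocktail library and 178-fold in the vehicle library (log2 interval 4.92 to 12.81). Both were thus almost without UMIs in non-dividing cells at this depth. Hist1h3e was at 25.8 and 33.4 CPM in dividing cells, against 4.23 and 4.29 CPM in non-dividing cells (log2 ratio 2.61 and 2.96).

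Averaged over the libraries, the H3 genes with the smallest ratios among those with at least 20 UMIs were Hist2h3c1 and Hist2h3c2. Hist2h3c1 was at 1.36 and 1.90 CPM in dividing cells, against 1.60 and 1.97 CPM in non-dividing cells, with 3 and 5 UMIs in dividing cells, against 14 and 22 in non-dividing cells, and was too low for a call in the cocktail library. Hist2h3c2 had 2 and 23 UMIs in dividing cells, against 11 and 15 in non-dividing cells, and 23 of its 53 UMIs in the kept vehicle cells lay in 1 cell. Its log2 ratio was −0.47 in the cocktail library, on too few UMIs for a call, and 2.70 (1.70 to 3.74) in the vehicle library, where it counted as higher. As a type, H3 was at 124 and 140 CPM in dividing cells, against 11.5 and 12.1 CPM in non-dividing cells (log2 ratio 3.42 and 3.53).

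As a type, H4 differed less between dividing and non-dividing cells than H1, H2A and H3. Hist1h4d, which led the type, was at 108 CPM in cocktail dividing cells and 155 CPM in vehicle dividing cells, against 42.4 and 38.7 CPM in non-dividing cells, with log2 ratios of 1.35 (1.11 to 1.59) and 2.00 (1.80 to 2.20). Hist1h4c was at 16.3 and 15.9 CPM in dividing cells, against 4.00 and 5.10 CPM in non-dividing cells (log2 ratio 2.03 and 1.64).

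Hist1h4h was at 18.6 and 34.1 CPM in dividing cells, against 13.4 and 18.6 CPM in non-dividing cells (log2 ratio 0.47 and 0.88), and Hist1h4i and Hist4h4 were also within 2-fold. Hist4h4 was at 2.26 and 2.28 CPM in dividing cells, against 2.17 and 1.79 CPM in non-dividing cells. Among H4 genes with at least 20 UMIs the largest ratios came from genes with few UMIs in these cells, Hist1h4m with 5 and 5 UMIs in dividing cells, against 2 and 3 in non-dividing cells, and Hist1h4k with 7 and 9, against 4 and 5. Summed, H4 was at 167.5 and 236 CPM in dividing cells, against 72.0 and 78.4 CPM in non-dividing cells (log2 ratio 1.22 and 1.59).

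**Figure D3:**
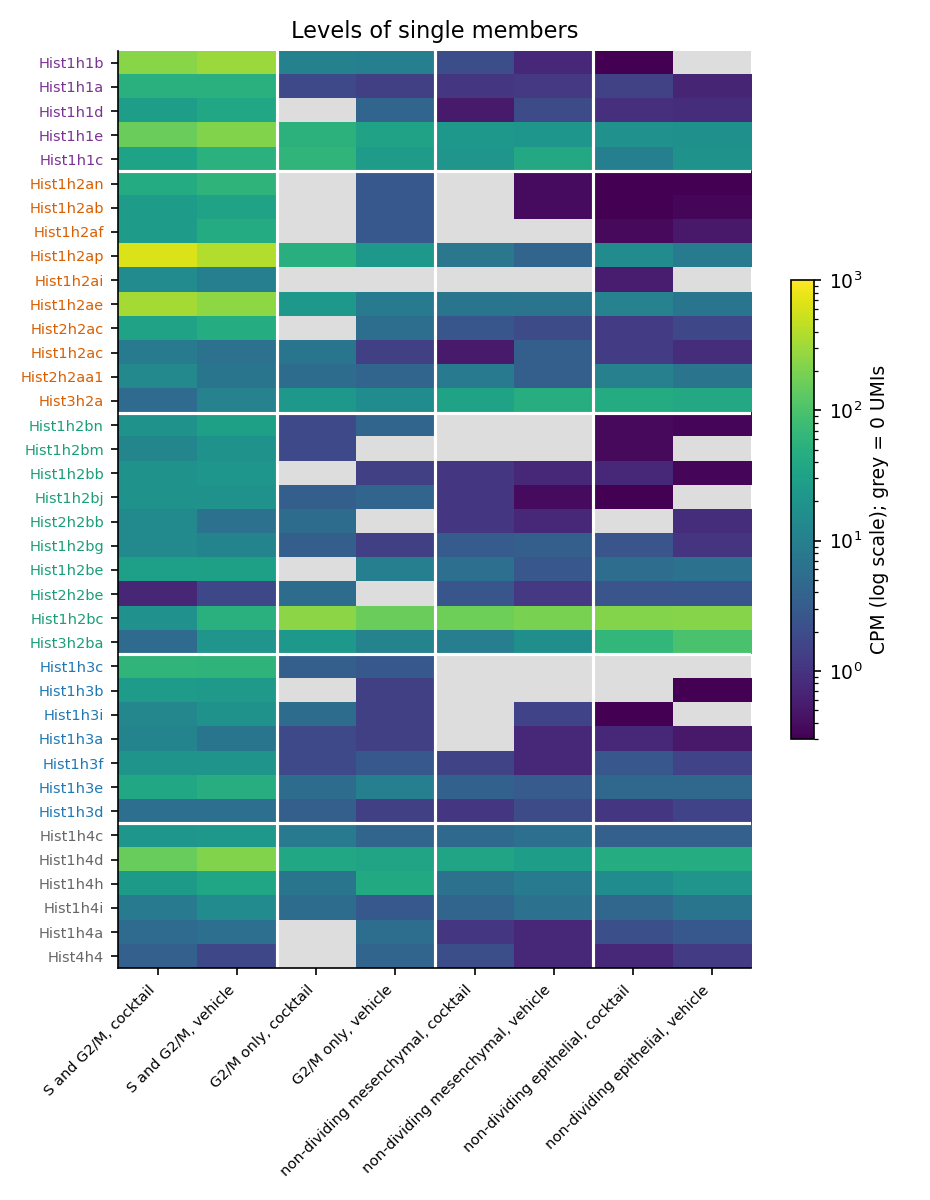
Level (CPM, log colour scale) of each of 38 members in groups of cells of both libraries, gene names coloured by histone type and grey marking 0 UMIs. Hist1h1b and Hist1h3c are far higher in S and G2/M cells than in non-dividing cells, where Hist1h3c is grey throughout, while Hist1h2bc is lowest in S and G2/M cells.

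The order of the groups was also checked in single cells thinned to 5000 UMIs each, with shallower cells left out. A Hist1h1b UMI was found in 15 of 35 cocktail S and G2/M cells (42.9%, 70.3% before thinning) and in 30 of 58 vehicle S and G2/M cells (51.7%, 67.8% before thinning). Among non-dividing epithelial cells it was found in 0 of 275 and 0 of 343, which allows shares of up to 1.09% and 0.875% by the floor of 3 counts, a limit on thinned cells with a UMI. Non-dividing mesenchymal cells had 1 of 107 and 0 of 149, so at most 1 thinned non-dividing cell per tissue and library held a Hist1h1b UMI.

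Hist1h2ap was found in 65.7% and 70.7% of S and G2/M cells (81.1% and 86.4% before thinning), against 5.45% and 4.37% of non-dividing epithelial cells (10.3% and 7.93% before thinning). In non-dividing mesenchymal cells its share was 4.67% and 1.34%, and in non-dividing glia 1 of 22 and 0 of 96 cells had it. Free RNA can give such low shares, and its part in them was not tested. Hist1h1b and Hist1h2ap had 332 and 917 UMIs in cocktail S and G2/M cells and 7 and 115 in cocktail non-dividing cells. In the vehicle library they had 502 and 680 UMIs in S and G2/M cells and 4 and 82 in non-dividing cells.

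Hist1h2bc gave the opposite order in the thinned cells. It was found in 5 of 35 and 2 of 58 S and G2/M cells, in 12 of 20 and 12 of 31 G2/M only cells, in 75 of 275 and 113 of 343 non-dividing epithelial cells and in 22 of 107 and 39 of 149 non-dividing mesenchymal cells. Before thinning these shares were 35.1% and 27.1%, 55.2% and 56.4%, 35.2% and 36.2%, and 33.1% and 39.8%. In the unthinned cells the shares of S and G2/M and of non-dividing cells lay closer together, at median UMIs of 38146 and 29539 in S and G2/M cells, against 5104 and 7963 in non-dividing cells.

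The make-up by histone type differed between the groups of cells. In S and G2/M cells H2A supplied 51.9% of the replication histone UMIs in the cocktail library and 38.8% in the vehicle library, H1 22.2% and 28.5%, and H2B 7.84% and 10.1%. In G2/M only cells H2B led with 47.0% and 43.1%, ahead of H2A with 17.8% and 14.5%. The few S only cells, with 99 and 40 such UMIs, were led by H2B in the cocktail library (40.4%) and by H4 in the vehicle library (35.0%). Non-dividing mesenchymal cells had 52.1% and 52.9% from H2B, and non-dividing epithelial cells 59.7% and 63.4%. These are shares of the captured molecules and not of the histone mRNA in the cell, since capture depends on a poly(A) tract.

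Between S and G2/M cells and G2/M only cells the types differed unequally. The log2 ratio of S and G2/M over G2/M only cells was 3.44 and 3.75 for H2A, 2.99 and 3.00 for H3, 2.00 and 3.16 for H1, and 1.79 and 1.72 for H4. For H2B it was −0.69 in the cocktail library and 0.24 in the vehicle library, where the interval held 0. At least 2-fold higher in S and G2/M cells were 26 of 30 members tested in the cocktail library (11.0% of all genes) and 26 of 30 in the vehicle library (9.79%). At least 2-fold lower were 3 members in the cocktail library, Hist1h2bc, Hist3h2a and Hist3h2ba (6.09% of all genes), and 1 in the vehicle library, Hist1h2bc (6.3%).

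S and G2/M cells set against non-dividing cells had 29 of 37 members at least 2-fold higher in the cocktail library (11.4% of all genes) and 29 of 41 in the vehicle library (9.72%). Lower there were 4 members in the cocktail library (21.5% of all genes) and 3 in the vehicle library (18.2%), Hist1h2bc, Hist3h2a and Hist3h2ba in each and Hist2h2be in the cocktail library. Against non-dividing cells, G2/M only cells had 7 of 20 members at least 2-fold higher in the cocktail library (10.2% of all genes) and 5 of 22 in the vehicle library (8.45%). Lower in G2/M only cells was 1 member in the cocktail library, Hist3h2ba (17.6% of all genes), and 3 in the vehicle library, Hist3h2ba, Hist3h2a and Hist1h4i (13.3%). Hist1h2ap was higher in both, at 49.6 and 22.5 CPM in G2/M only cells, against 13.1 and 7.34 CPM in non-dividing cells.

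**Figure D4:**
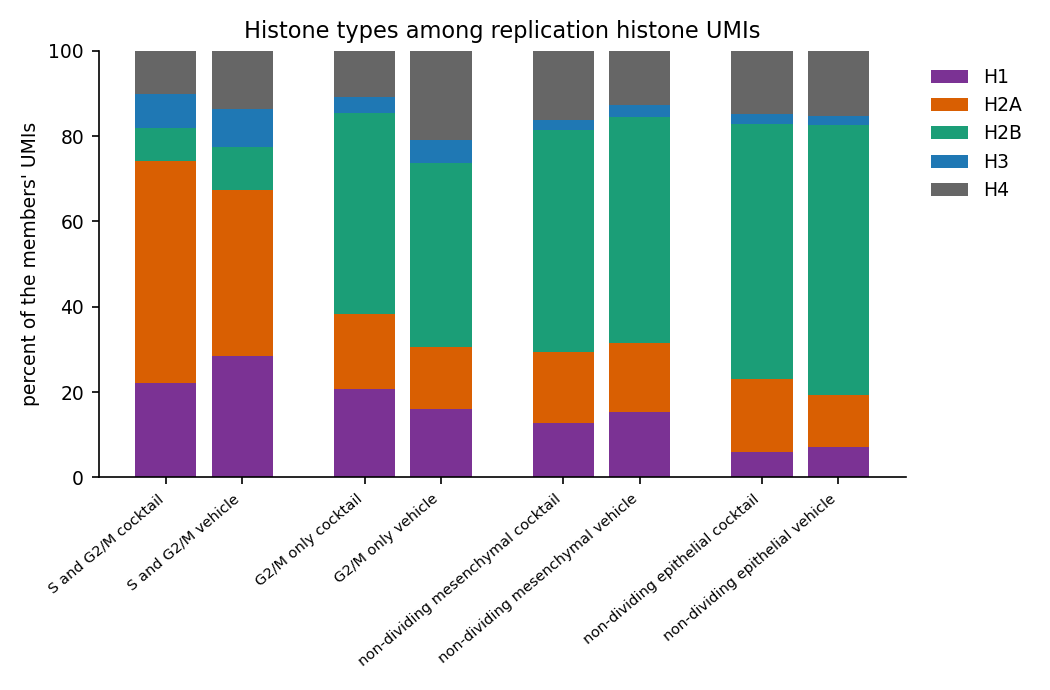
Share of replication histone UMIs (percent, stacked bars) by histone type in groups of cells, cocktail left of vehicle. H2A has 51.9% and 38.8% in S and G2/M cells, while H2B has 47.0% and 43.1% in G2/M only cells and 59.7% and 63.4% in non-dividing epithelial cells.

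The same comparison was made within the tissues. In mesenchymal cells the summed level was 1814 CPM in 39 cocktail dividing cells and 1743 CPM in 60 vehicle dividing cells, against 365.5 and 422 CPM in 136 and 166 non-dividing cells. The log2 ratio was 2.31 (2.19 to 2.43) and 2.05 (1.95 to 2.15), and 25 of 29 members tested were at least 2-fold higher in each library, where 9.17% and 7.57% of all genes were. At least 2-fold lower were 1 member, Hist3h2a, in the cocktail library (15.2% of all genes) and 2, Hist3h2a and Hist1h2bc, in the vehicle library (12.2%). A looser gate gave a log2 ratio of 1.63 in the cocktail library and 1.33 in the vehicle library.

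In epithelial cells the summed level was 1035 CPM in 27 cocktail dividing cells and 1329 CPM in 35 vehicle dividing cells, against 504 and 541 CPM in 475 and 542 non-dividing cells. The log2 ratio was 1.04 (0.90 to 1.17) and 1.30 (1.19 to 1.40), and 11 of 17 and 14 of 21 members tested were at least 2-fold higher, where 10.9% and 10.1% of all genes were. At least 2-fold lower were 2 members in the cocktail library, Hist3h2ba and Hist3h2a (11.5% of all genes), and 3 in the vehicle library, these 2 and Hist1h2bc (12.8%). With the looser gate the log2 ratio was 0.68 and 0.37.

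Hist1h2bc was below its non-dividing level in the dividing cells of both tissues, past 2-fold in the vehicle library. It was at 114 and 48.5 CPM in dividing epithelial cells, against 222 and 232 CPM in non-dividing ones. In mesenchymal cells it was at 83.9 and 80.2 CPM in dividing cells, against 166 and 196 CPM in non-dividing ones. These dividing cells pool S and G2/M cells with the others. Over all tissues, the log2 ratio of Hist1h2bc in G2/M only over non-dividing cells was 0.20 (−0.06 to 0.45) in the cocktail library. In the vehicle library it was −0.60 (−0.89 to −0.33). G2/M only cells were thus not below the non-dividing level in the cocktail library.

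Compared directly, S and G2/M cells of the mesenchyme had more captured replication histone RNA than those of the epithelium. The level was 2611 CPM in 20 cocktail mesenchymal cells and 2485 CPM in 37 vehicle mesenchymal cells, against 1243 CPM in 14 and 1672 CPM in 19 epithelial cells (log2 ratio 1.07 (0.92 to 1.22) and 0.57 (0.46 to 0.68)). Hist1h2ap was at 785 and 439 CPM in the mesenchymal cells, against 271 and 299.8 CPM in the epithelial ones, and Hist1h1b at 281 and 324 CPM, against 90.4 and 217.5 CPM. At least 2-fold higher in mesenchymal cells were 12 of 23 members in the cocktail library (16.8% of all genes) and 9 of 29 in the vehicle library (14.5%), and 0 were lower in either library, where 17.6% and 16.1% of all genes were. With 14 to 37 cells on each side these are values of few cells, and how far each cell was through S phase was not measured.

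Outside division the tissues differed little in the sum and more in single members. Non-dividing mesenchymal cells were at 365.5 and 422 CPM, against 504 and 541 CPM in non-dividing epithelial cells, for log2 ratios of −0.46 (−0.59 to −0.34) in the cocktail library and −0.36 (−0.46 to −0.26) in the vehicle library. With tissue assigned by cluster the log2 ratio was −0.33 and −0.067, and the interval of the second (−0.15 to 0.02) held 0. At least 2-fold higher in mesenchymal cells was 1 of 15 members in the cocktail library (14.9% of all genes) and 1 of 14 in the vehicle library (13.8%), in each case Hist1h1c. At least 2-fold lower were 2 and 3 members, where 19.0% and 19.8% of all genes were.

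Hist1h1c was at 20.8 and 39.5 CPM in non-dividing mesenchymal cells, against 9.88 and 19.2 CPM in non-dividing epithelial cells (log2 ratio 1.08 (0.44 to 1.70) and 1.04 (0.64 to 1.44)). Hist3h2ba was at 9.60 and 16.9 CPM in mesenchymal cells, against 64.0 and 97.0 CPM in epithelial cells, with log2 ratios of −2.74 (−3.51 to −2.06) and −2.52 (−3.00 to −2.08). Hist1h4h was at 6.40 and 8.45 CPM in mesenchymal cells, against 15.4 and 20.4 CPM in epithelial cells (−1.26 and −1.28). In the thinned cells a Hist3h2ba UMI was found in 3.74% and 7.38% of mesenchymal cells (8.82% and 9.04% before thinning), against 19.6% and 26.5% of epithelial cells (28.8% and 34.5% before thinning). Hist3h2ba thus stood out as a member of the non-dividing epithelium in both libraries, while Hist3h2a did not, at 32.0 and 46.8 CPM in mesenchymal cells, against 44.6 and 40.2 CPM in epithelial cells.

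The members of non-dividing cells were unevenly spread among the cells. In non-dividing cells with at least 5000 UMIs, a Hist1h2bc UMI was found in 188 of 456 cocktail cells (41.2%) and in 312 of 681 vehicle cells (45.8%). The 45 cocktail and 68 vehicle cells with most Hist1h2bc held 75.3% and 67.6% of its UMIs, and the highest cell held 201 and 85 UMIs. Of the UMIs of Hist3h2ba the same number of cells, those with most of it, held 67.4% and 66.4%, for Hist3h2a 58.1% and 58.1%, for Hist1h1c 85.3% and 84.2% and for Hist1h4h 82.2% and 84.7%. The replication-independent histone genes H2afj and H3f3b, with more UMIs, had 33.9% and 29.2% in the cocktail library and 33.9% and 29.7% in the vehicle library in such cells. Genes with fewer UMIs have a higher such share from counting alone, so the values of different genes are not ranked here.

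Cells with a Hist1h2bc UMI also held more of some other members than cells without one. Hist1h4h was at 17.8 CPM in cocktail cells with Hist1h2bc and 29.4 CPM in such vehicle cells, against 5.06 and 2.47 CPM in cells without it. Hist1h1c was at 19.8 and 45.8 CPM in cells with it, against 4.30 and 6.79 CPM in cells without it, and Hist3h2a at 65.9 and 79.0 CPM, against 25.1 and 33.96 CPM. Hist1h1e was close between them, at 19.3 and 17.3 CPM, against 15.4 and 18.9 CPM, as was H3f3b at 2167 and 2191 CPM, against 1964 and 1869 CPM. The cells with Hist1h2bc were deeper, with median UMIs of 20264 and 16185, against 13150 and 11534, and the part of depth in these differences was not tested.

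Clusters of cells were then formed without the members, by removing the 11 members found among the 2000 most variable genes. In 12 of these clusters each library had at least 20 non-dividing cells, and the summed level of the members in them ran between 127 and 1604 CPM in the cocktail library and between 139 and 1653 CPM in the vehicle library. Cluster 13, led by Spink4, Cox8b and Ly6g6c, was highest in each, with 36 and 33 cells. Hist1h2bc was at 955 CPM (850 to 1069) and 885.5 CPM (787 to 993) there and at 9.83 CPM (3.95 to 20.3) and 27.1 CPM (15.2 to 44.8) in cluster 9, which was led by Ifitm1, Otor and Apoe. A Hist1h2bc UMI was present in 21 of the 36 and 24 of the 33 cells of cluster 13, so its level there did not come from 1 cell.

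Other members peaked elsewhere. Hist1h1c was highest in cluster 10, led by Rhpn2, Gpam and Lsamp, at 115 and 193 CPM, on 9 and 39 UMIs, and Hist1h4h was highest in the same cluster, at 128 and 129 CPM. Cells of cluster 10 were shallow, with median UMIs of 1562 and 2818. Among the 12 clusters Hist3h2a was highest in cluster 3, led by Opcml, Mfap4 and Myo16, at 107 and 155 CPM. A cluster outside the 12 exceeded it in the vehicle library, cluster 17 with 39 non-dividing vehicle cells, where Hist3h2a had 88 UMIs, at 193.8 CPM (155.4 to 238.8). Among the 12, the same cluster was highest in both libraries for each of these members. For Hist1h4d and Hist1h1e it was not, with cluster 13 highest in the cocktail library and cluster 1 in the vehicle library.

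Hist3h2ba was highest in cluster 13 among these 12 clusters, at 127 and 234 CPM, and lowest in cluster 8, led by Ccl5, Saa3 and Spp1, at 5.13 and 1.57 CPM. A smaller cluster exceeded all of them. Cluster 20, led by Ptprq, Cabp2, Nrxn3 and Espn, held 6 cocktail and 26 vehicle non-dividing cells, with Hist3h2ba at 927 CPM (725 to 1167) and 683 CPM (584.5 to 794). A UMI of it was found in 5 of the 6 and 23 of the 26 cells, and the highest cell had 28 of 72 and 17 of 170 UMIs. Hist1h2bc was at 12.9 and 88.4 CPM in the same cells, so the cluster highest in Hist3h2ba was not the one highest in Hist1h2bc. Ptprq, Espn and Loxhd1, which lead this cluster, encode proteins of stereocilia, the sensory bundle.

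**Figure D5:**
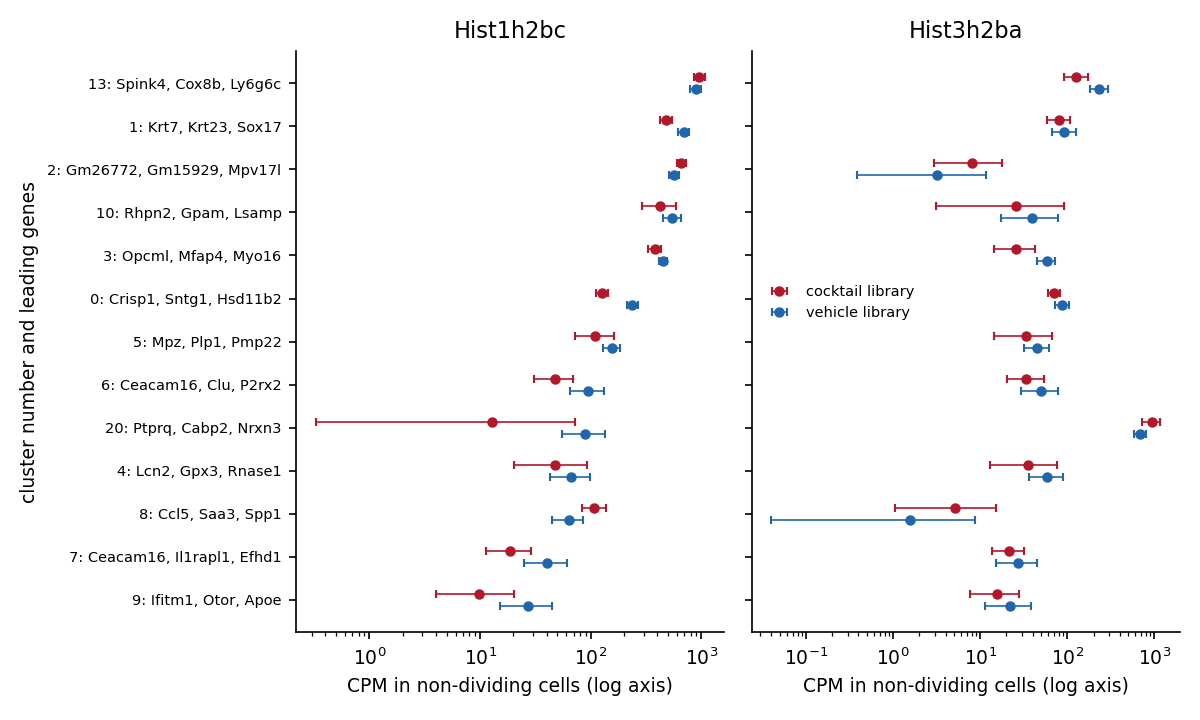
Level (CPM, log axis) of Hist1h2bc and Hist3h2ba in non-dividing cells of 12 clusters and of cluster 20, made without the members, with 95% exact Poisson intervals for the cocktail and the vehicle library. Hist1h2bc is highest in cluster 13 at 955 and 885.5 CPM, and Hist3h2ba in cluster 20 at 927 and 683 CPM.

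Between the conditions the summed level was close. Over all kept cells the members summed to 649 CPM with cocktail and 676.5 CPM with vehicle (log2 ratio −0.06). In dividing cells the log2 ratio was 0.02 (−0.05 to 0.08), in non-dividing epithelial cells −0.10 and in non-dividing mesenchymal cells −0.21. At least 2-fold higher in the cocktail library was 1 of 51 members tested, Hist1h4n (3.62% of all genes), and at least 2-fold lower were 2, Hist2h4 and Hist1h2bp (5.01%), while 16 members were not tested.

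Hist1h4n had 19 UMIs in the cocktail library and 8 in the vehicle library, Hist2h4 had 13 and 45, and Hist1h2bp had 13 and 39, of which 20 vehicle UMIs lay in 1 cell. In dividing cells 1 of 39 members was at least 2-fold higher with cocktail, Hist2h2bb with 23 and 11 UMIs (3.5% of all genes), and 1 lower, Hist2h3c2 with 2 and 23 UMIs (5.81%), its 23 vehicle UMIs all in 1 cell. In non-dividing epithelial cells 1 of 18 was higher, Hist1h2bg with 14 and 6 UMIs (3.07% of all genes), and 0 lower (6.68%). In non-dividing mesenchymal cells 1 of 12 was higher, Hist2h2aa1 with 16 and 9 UMIs (4.15% of all genes), and 0 lower (4.7%). Hist2h2bb and Hist2h3c2 were under the minimum in both non-dividing groups and Hist1h2bg in the mesenchymal one, so these calls cannot show overlap between groups. Hist2h2aa1 was tested in all 3 groups, at 1.75-fold in dividing, 1.54-fold in non-dividing epithelial and 2.47-fold in non-dividing mesenchymal cells.

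Single types differed more than the sum in dividing cells, with log2 ratios of cocktail over vehicle of 0.40 for H2A, −0.31 for H1 and −0.49 for H4. Hist1h2ap was at 433 CPM in cocktail dividing cells and 265 CPM in vehicle dividing cells, a log2 ratio of 0.71 (0.57 to 0.85), and its ratio over all kept cells was 0.71 (0.58 to 0.83). Hist2h2aa1 had the largest ratio among members with over 100 UMIs in each library, 0.91 (0.58 to 1.24), and like Hist1h2ap shares most of its sequence with other H2A genes. Hist3h2ba was lower in the cocktail library at −0.66 (−0.78 to −0.53) over all kept cells, at −0.60 (−0.80 to −0.40) in non-dividing epithelial cells and at −0.88 (−1.72 to −0.09) in dividing cells. Cluster 20, high in Hist3h2ba, had 6 non-dividing cells in the cocktail library and 26 in the vehicle library, with 72 and 170 UMIs of it. Within that cluster the level was higher with cocktail, at 927 and 683 CPM. The part of cell make-up in the Hist3h2ba ratios was not tested. Hist1h1c was lower in the cocktail library at −0.96 (−1.46 to −0.48) in non-dividing epithelial cells and −0.93 (−1.50 to −0.38) in non-dividing mesenchymal cells. The difference was smaller over all kept cells, at −0.29 (−0.47 to −0.11), and in dividing cells, at −0.08 (−0.51 to 0.34). Hist1h2bc was level at 0.00 over all kept cells. Treatment, pool and library cannot be told apart in these values.

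Genes that work with the replication histones were counted from 2 lists. Of 16 genes for the synthesis and processing of histone mRNA, 15 were tested, and 9 in the cocktail library and 8 in the vehicle library were at least 2-fold higher in dividing than in non-dividing cells, with 0 lower. Of all genes tested, 11.0% and 9.17% were higher and 20.2% and 16.1% lower. Slbp, which binds the stem-loop, was at 120 and 151 CPM in dividing cells, against 58.9 and 49.2 CPM in non-dividing cells (log2 ratio 1.03 and 1.61), and in S and G2/M cells it was at 159 and 201.5 CPM, against 42.5 and 49.3 CPM in G2/M only cells. Asf1b, a chaperone that hands H3 and H4 to chromatin, had the largest ratio, 4.10 and 5.65, followed by Ccne1, a cyclin whose kinase acts on Npat, at 3.44 and 3.75. Nasp, a chaperone of H1, H3 and H4, was at 1.51 and 1.36, and Npat, the coactivator of histone genes, at 0.42 and 0.63.

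Of 11 replication-independent histone genes, whose expression is not tied to DNA synthesis and whose mRNAs carry poly(A) tails, 6 and 5 were at least 2-fold higher in dividing cells and 0 lower. The shares of all genes were again 11.0% and 9.17% higher and 20.2% and 16.1% lower. Cenpa, the H3 variant of centromeres, had log2 ratios of 5.22 and 6.24, H1fx 2.92 and 3.22, and H2afz 2.47 and 2.55. H3f3b, which encodes H3.3, was level at 0.06 and 0.12, at 2140 and 2242 CPM in dividing cells, against 2048 and 2067 CPM in non-dividing cells. H2afj, an H2A variant, was at −0.71 and −0.51, a smaller difference than that of Hist3h2a.

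Across the clusters with at least 10 cells of a library, formed with the members among the genes used, the summed replication histone level ran most alike with that of Eif1ad, Uqcrq, Psmd6, Nup35 and Psmc3 among 9414 genes. For Eif1ad Spearman's rho was 0.862 over 18 cocktail clusters and 0.855 over 25 vehicle clusters, and for the other 4 genes the lower of the 2 values lay between 0.752 and 0.778. These are descriptions, since the clusters of a library share its depth and preparation.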

How the data were processed

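Single-cell RNA-seq libraries (10x Genomics 3′ chemistry, which primes on poly(A)) were made of 1 pool of 5 cultures per condition. Values in the deposited files are unnormalised UMI counts for each gene and barcode, written per the file headers by Cell Ranger 5.0.0. Tools in the submitters' processing notes are STAR, Cell Ranger 5.0 and Seurat 3.2.2, with GRCm38 and mm10 as builds, and how reads shared by near-identical genes were assigned is not given in the sources used here. The labels state about 1400 cocktail and 1700 vehicle cells recovered, beside 1403 and 1688 barcodes in the files, which held 19625208 and 23108868 UMIs. The filter left 1329 and 1584 cells with median UMIs of 10391 and 12267, and a level of 3 counts over a library, the floor used for 0, is 0.154 and 0.13 CPM.

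Counts were summed per library and group of cells and scaled to CPM with Python 3.11.15, numpy 2.4.6, scipy 1.17.1, pandas 2.3.3 and scanpy 1.11.5, and figures were drawn with matplotlib 3.10.9. Cells are not replicates, so no test of a condition was made, and molecules tagged in 1 pool give intervals for counting error only. Tissue followed from the marker list with the highest share of a cell's UMIs (at least 3 UMIs of at least 2 genes, at least 3 times the next list of epithelial, mesenchymal, glia, immune and endothelial genes). Cells near that limit numbered 226 and 277, and cells near the limit for dividing cells 182 and 225. Scrublet marked 0 and 2 cells as doublets, too few to have worked, so doublets were in effect not removed. A gene was called at a 2-fold difference when it had at least 20 UMIs over both groups, a count of 0 being set to 3. The calculation of ratios and intervals was tested on simulated data. Leiden clusters (resolution 1.0, 30 components, 15 neighbours) came from 2000 variable genes (26 clusters), and again from the 1989 left without members.

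Members named with values are the 15 with most UMIs, the 2 with the largest and the 2 with the smallest dividing over non-dividing ratio per histone type among those with at least 20 UMIs, and the 2 at each end of cocktail over vehicle. Hist1h1d, Hist2h2be, Hist2h2bb, Hist1h2bg and the members within 2-fold were named after their values were seen. The members and gene lists were chosen with earlier results of these data known. The comparison of S and G2/M with G2/M only cells, the sum without Hist1h2bc, the clusters without members, and the spread over single cells were added after seeing the data. The alternatives tried were other gene minimums, gates, barcode filters, scalings and ways to assign tissue, and omission of each gene's highest cell. Sequences come from GENCODE M21 transcripts and RefSeq promoters, and other reference sequence was not used here.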

Additional observations from a re-analysis of the deposited data

How the results depend on the processing

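The summed ratios kept their sign in the alternatives run, except cocktail over vehicle in dividing cells (0.02), which kept it in 7 of 9. That ratio was −0.23 as a mean of per-cell CPM, and its interval held 0 as reported (−0.05 to 0.08) and with a stricter gate. Each summed ratio moved by less than its counting interval under CPM without mitochondrial UMIs, in cells with at least 5000 UMIs, with no barcode filter and with a stricter gate, for each result recomputed. Removing doublets took out 0 and 2 cells and so tests little. Values follow as cocktail, then vehicle, on the log2 scale unless counted. With a gene minimum of 50 UMIs 14 and 18 members were at least 2-fold higher in dividing cells, and with none 47 and 47, against 29 and 30. A looser gate gave 1.02 and 0.71 for dividing over non-dividing cells (1.80 and 1.57 as reported), 0.68 and 0.37 in epithelial cells (1.04 and 1.30), 1.63 and 1.33 in mesenchymal cells (2.31 and 2.05), 0.71 and 1.53 for S and G2/M over G2/M only cells (1.90 and 2.32), and 0.10 for cocktail over vehicle in dividing cells (0.02). The mean of per-cell CPM gave 1.16 and 1.22 for S and G2/M over G2/M only cells, 1.44 for dividing over non-dividing cells under cocktail, 1.32 in cocktail epithelial cells, 2.24 in vehicle mesenchymal cells, −0.65 and −0.62 for non-dividing mesenchymal over epithelial cells, and for cocktail over vehicle −0.13 over all cells and −0.23 in dividing cells. Tissue by cluster gave 1.46 in vehicle epithelial cells, 1.70 in vehicle mesenchymal cells, −0.33 and −0.067 for non-dividing mesenchymal over epithelial cells (the second with an interval that held 0), and −0.42 for cocktail over vehicle in non-dividing mesenchymal cells. Without Hist1h2bc the values were 2.56 and 2.33, in epithelial cells 1.71 and 2.05, in mesenchymal cells 3.12 and 2.88, and 2.60 and 2.90 for S and G2/M over G2/M only cells. Without each gene's highest cell they were 1.71 and 1.41, in epithelial cells 0.46 and 0.83, 2.16 and 2.68 for S and G2/M over G2/M only cells, −0.59 and −0.53 for non-dividing mesenchymal over epithelial cells, and −0.22 for cocktail over vehicle in non-dividing epithelial cells. The cause of these shifts was not tested. No paired analysis was possible because each condition is 1 library. Depth limits the members with few UMIs, of which 29 were under the minimum in at least 1 library.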
